A study of Mus musculus with 12 samples.

Results

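The genes described here handle iron and heme, and several of them belong to the acute-phase response. They are 9 of the 54532 genes counted in the series: Lcn2, Cp, Hp, Hpx, Hmox1, Slc40a1, Tfrc, Fth1 and Ftl1, chosen by name and all found in the deposited table. RNA of whole spinal cord was sequenced from C57BL/6 mice aged 2 to 3 months. The mice labelled Drd2mGFAP cKO (cKO below) carried a conditional deletion of Drd2, the dopamine D2 receptor gene, and littermates labelled wt (controls) did not. GFAP is the astrocyte gene whose promoter the label names, so a deletion driven by it would leave Drd2 in other cells of the cord. Each genotype was sampled in health (basal) and on day 17 of experimental autoimmune encephalomyelitis (EAE), an induced immune attack on myelin used to model multiple sclerosis, with 3 libraries labelled as biological replicates in each of the 4 groups. Whether basal mice received any injection is not stated in the labels.

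Iron is scarce and toxic at once, so cells take it up, store it and release it under tight control. Transferrin receptor brings iron in, ferritin stores it as a shell of heavy and light chains, ferroportin lets it out, and ceruloplasmin oxidizes it so that transferrin can carry it. Haptoglobin and hemopexin catch hemoglobin and heme that leak from red cells, heme oxygenase 1 splits heme and frees its iron, and lipocalin 2 binds siderophores, the small molecules with which bacteria scavenge iron. In the nervous system, astrocytes, microglia and entering myeloid cells are known to make several of these proteins during inflammation.

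Part of this control runs through iron-responsive elements, RNA hairpins to which iron regulatory proteins bind when iron is low. In a 5′ UTR the bound hairpin blocks translation, and in the 3′ UTR of Tfrc it protects the mRNA. The hairpins are shown because they divide the 9 genes into a set with such an element and a set without one, and the sets are described separately below. GENCODE M21 transcripts (build GRCm38, mm10) were searched on the transcribed strand for the loop CAGTGN closed by 5 base pairs, G with T pairs included. Of 21877 coding genes, 0.48% held a match in a 5′ UTR and 2.39% in a 3′ UTR. Among the 9 genes, Slc40a1, Fth1 and Ftl1 matched in the 5′ UTR and Tfrc matched 4 times in the 3′ UTR. In the sequences below the loop is in capitals. A match is a description of these letters and not a measurement of binding.
Slc40a1, 5′ UTR, chr1:45925465-45925492, minus strand: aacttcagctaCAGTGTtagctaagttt
Fth1, 5′ UTR, chr19:9982733-9982760, plus strand: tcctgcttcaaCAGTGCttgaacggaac
Ftl1, 5′ UTR, chr7:45459779-45459806, minus strand: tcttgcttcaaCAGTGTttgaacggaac
Tfrc, 3′ UTR, chr16:32631220-32631247, plus strand: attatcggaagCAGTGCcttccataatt
Tfrc, 3′ UTR, chr16:32631599-32631626, plus strand: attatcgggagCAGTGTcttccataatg
Tfrc, 3′ UTR, chr16:32631664-32631691, plus strand: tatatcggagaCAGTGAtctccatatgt
Tfrc, 3′ UTR, chr16:32631711-32631738, plus strand: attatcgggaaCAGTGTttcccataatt
The Fth1 and Ftl1 hairpins shared 26 of 28 bases and differed by C3T and C17T (Fth1 base first, counted from 1 at the 5′ end of the printed stretch). No match was found in the transcripts of Lcn2, Cp, Hp, Hpx or Hmox1.

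Library totals ran from 15128913 to 17592105 counts. The library cKO basal 2 stood apart, with 17220 genes detected against 24303 to 26056 in the others. In cKO EAE 3 immune markers were near basal levels. Its T cell list summed to 5.47 CPM, against 4.03 to 5.41 CPM at basal and at least 29.4 CPM in other EAE libraries. Its monocyte list summed to 117 CPM, against 41.5 to 73.8 CPM at basal and at least 920 CPM in other EAE libraries. Results that rest on either of these 2 libraries are given with and without them. Values below are TMM-scaled CPM, that is, counts relative to the library's scaled total. Drd2 itself was 21.9 ± 4.02 CPM at basal and 9.17 ± 0.396 CPM at EAE in controls, and 28.6 ± 9.50 and 12.9 ± 6.34 CPM in cKO mice (SD, n = 3 per group), so whole-gene counts did not show the deletion, and they do not test loss of one part of the gene in one cell type. The marker lists for neurons, oligodendrocytes and astrocytes had every gene counted in every library. All basal libraries held the female transcript Xist (316 to 753 CPM) with no count of Ddx3y, and all EAE libraries held Ddx3y (69.7 to 74.5 CPM) with Xist at 0.287 CPM or less. Disease and sex therefore cannot be told apart in EAE against basal, nor in the difference between the responses of the genotypes. At basal and at EAE, the genotypes were each compared within the same sex.

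**Figure D1:**
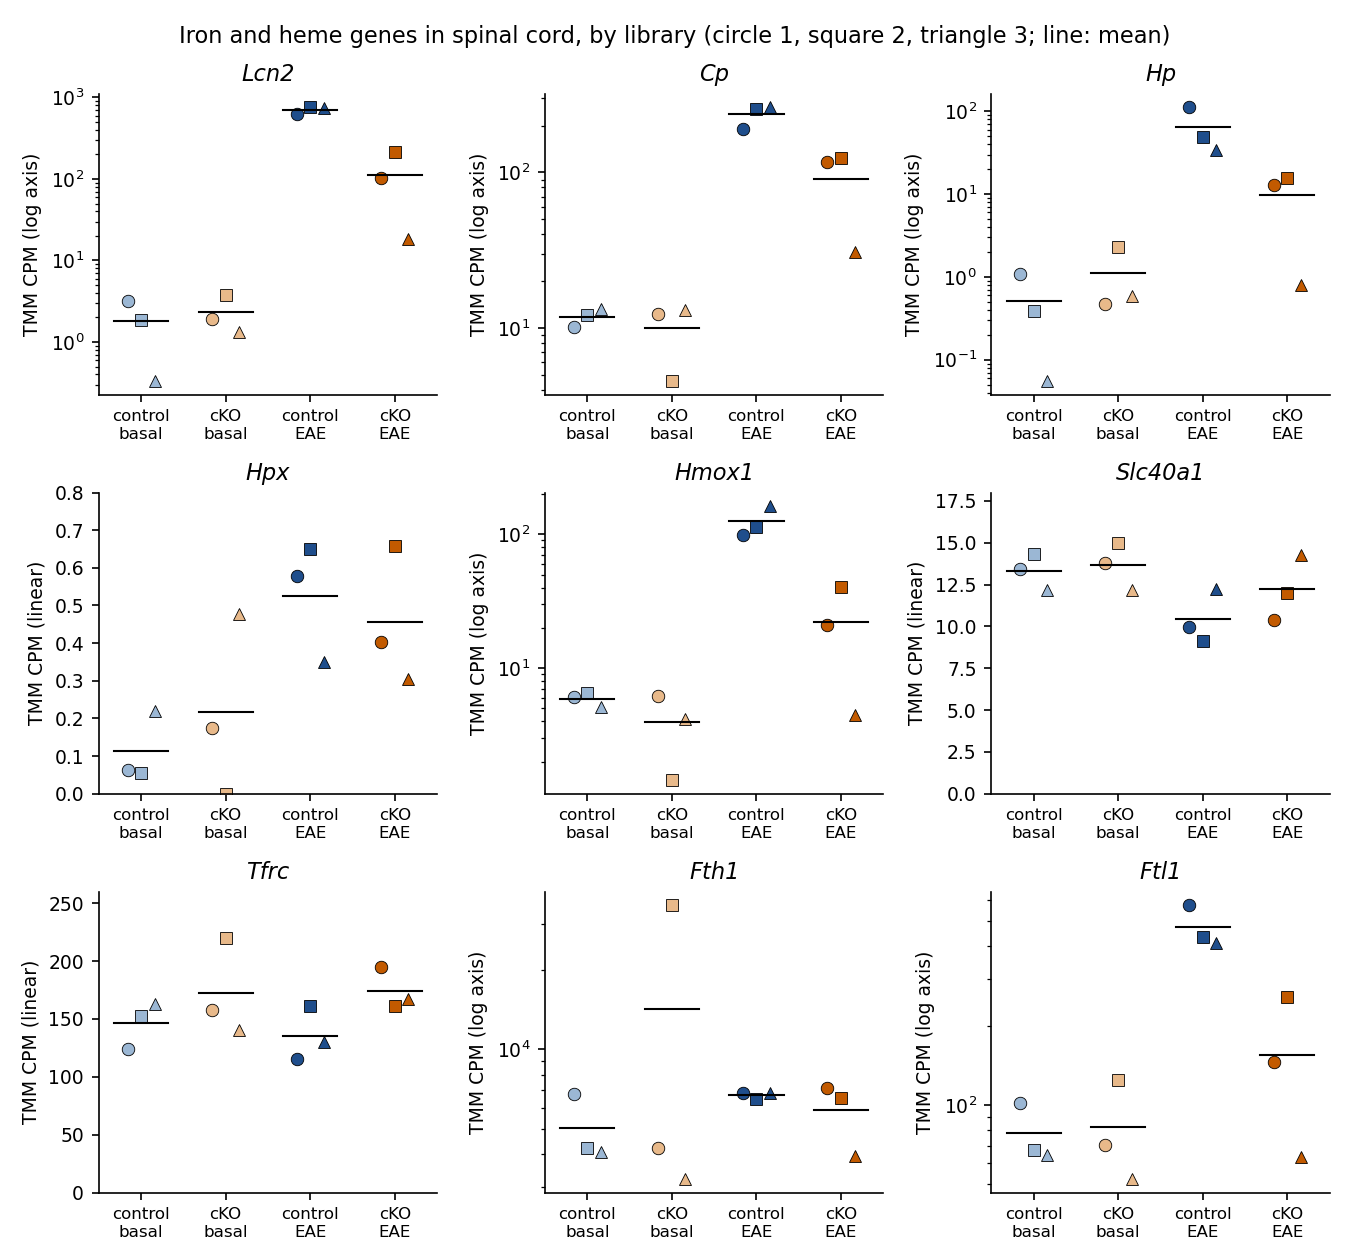
TMM-scaled CPM of the 9 genes in each of the 12 libraries, by group; circles, squares and triangles are libraries 1, 2 and 3, lines are group means, and axes are logarithmic except for Hpx, Slc40a1 and Tfrc. Lcn2, Cp, Hp, Hmox1 and Ftl1 are far higher in control EAE than in control basal, cKO EAE lies between, and 1 cKO basal library has Fth1 at 35441 CPM.

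In control mice, genes that capture iron and heme in the extracellular space, heme oxygenase 1 and the light chain of ferritin were far higher in the EAE libraries than in the basal ones. Lcn2, Cp, Hp, Hmox1 and Ftl1 rose, 5 of the 8 members that passed the filter on low counts, against 12.1% of the 18601 genes tested that were called higher (the quasi-likelihood test of edgeR with Benjamini-Hochberg adjustment, threshold 0.05). No member fell, against 5.05% of genes called lower. The 8 also passed the filter among the basal libraries alone. Of the 4 tested members with a hairpin match, 1 rose (Ftl1), and of the 4 without one, all rose. The matched set is also the set for iron uptake, export and storage, so hairpin and class of gene cannot be told apart.

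Lcn2 (chromosome 2, 32384633 to 32388252, minus strand) encodes lipocalin 2. Its level was 3.18, 1.88 and 0.331 CPM in the control basal libraries and 624, 760 and 740 CPM in control EAE. The groups did not overlap, and the EAE libraries lay close together. The rise was 8.63 on the log2 scale (SE 1.09, 395-fold; adjusted p = 0.00318 by the quasi-likelihood test of edgeR with Benjamini-Hochberg adjustment). It was the steepest of the 9 genes.

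Cp (chromosome 3, 19957054 to 20009145, plus strand), for ceruloplasmin, the copper-carrying ferroxidase, stood at 10.1, 12.2 and 13.2 CPM in control basal and at 190, 256 and 263 CPM in control EAE. Its log2 fold change was 4.32 (SE 0.55, 19.99-fold; adjusted p = 0.00318). Hp (chromosome 8, 109575128 to 109579172, minus strand), for haptoglobin, was 1.08, 0.387 and 0.0553 CPM in control basal, the last of these a single count. In control EAE it was 112, 48.5 and 34.4 CPM, so the groups did not overlap although both were wide. Its log2 fold change was 7.01 (SE 1.26; adjusted p = 0.00457).

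Hpx (chromosome 7, 105591613 to 105600137, minus strand), for hemopexin, was almost absent from the cord and did not pass the filter. Controls had 1, 1 and 4 counts at basal and 10, 11 and 6 at EAE, and cKO mice had 3, 0 and 8 at basal and 7, 11 and 5 at EAE. Summed by group this gave 6 counts (exact Poisson 95% interval 2.20 to 13.1) in control basal and 27 (17.8 to 39.3) in control EAE, intervals that cover counting error only. Without any filter its log2 fold change in control mice was 2.13 (SE 0.93; adjusted p = 0.254). Without cKO basal 2 and cKO EAE 3 it entered the fit through its EAE counts, since it failed the filter among the basal libraries alone, so its edgeR value there (2.13, SE 0.67; adjusted p = 0.0207) is a description and is not counted as a rise. Of the 4 secreted proteins, lipocalin 2, ceruloplasmin, haptoglobin and hemopexin, only the last had RNA below 1 CPM in every library.

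Hmox1 (chromosome 8, 75093621 to 75100589, plus strand), for the inducible heme oxygenase, was 6.04, 6.52 and 5.08 CPM in control basal and 99.7, 113 and 162 CPM in control EAE. The groups did not overlap. The log2 fold change was 4.41 (SE 0.73, 21.2-fold; adjusted p = 0.00346). Hmox2, the constitutive heme oxygenase, did not pass the test (-0.27; adjusted p = 0.363).

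The receptor and the exporter, both carrying hairpins, did not move past their spread. Tfrc (chromosome 16, 32608920 to 32632794, plus strand), the transferrin receptor, was 124, 153 and 163 CPM in control basal and 115, 161 and 130 CPM in control EAE, and the groups overlapped (log2 fold change -0.12, SE 0.21; adjusted p = 0.796). Slc40a1 (chromosome 1, 45908068 to 45926523, minus strand), for ferroportin, the known iron exporter of animal cells, was 13.4, 14.3 and 12.2 CPM in control basal. In control EAE it was 9.98, 9.12 and 12.2 CPM, and the groups overlapped narrowly (log2 fold change -0.35, SE 0.21; adjusted p = 0.327).

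The ferritin chains parted. Ftl1 (chromosome 7, 45457944 to 45459884, minus strand), the light chain, rose from 102, 67.4 and 64.8 CPM in control basal to 574, 436 and 413 CPM in control EAE. Its log2 fold change was 2.60 (SE 0.49, 6.08-fold; adjusted p = 0.00520). Fth1 (chromosome 19, 9982703 to 9985092, plus strand), the heavy chain with the ferroxidase site, was 6790, 4201 and 4057 CPM in control basal. It was 6831, 6478 and 6830 CPM in control EAE, where the libraries were tight but reached down into the basal range (0.42, SE 0.74; adjusted p = 0.787). In the fit shared by all 12 libraries the error of Fth1 includes the spread of the cKO basal group; without cKO basal 2 and cKO EAE 3 its log2 fold change was 0.43 (SE 0.21; adjusted p = 0.108).

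**Figure D2:**
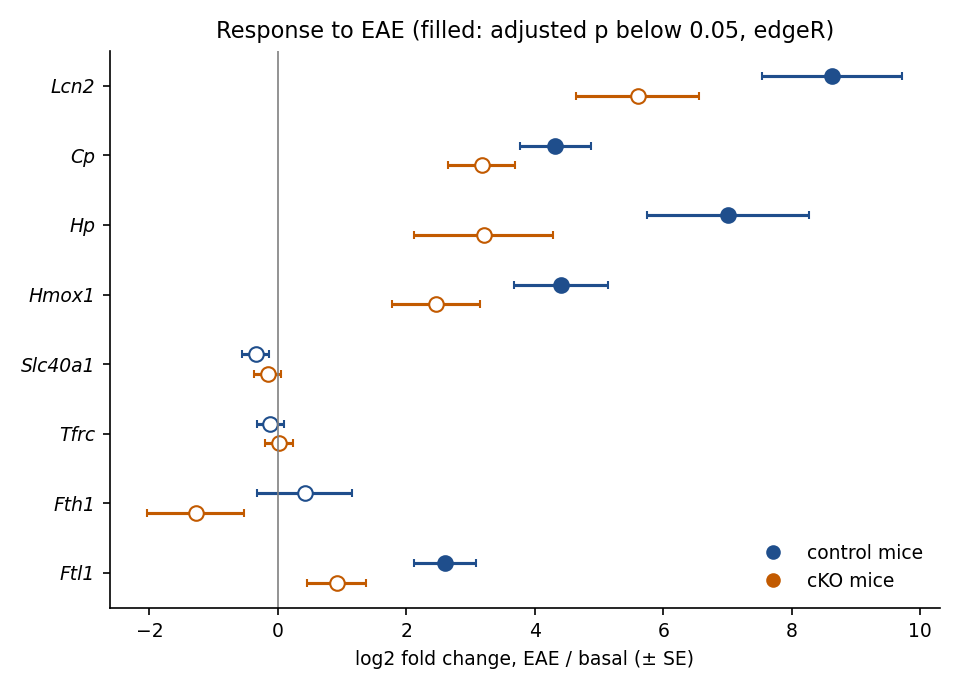
Log2 fold change of EAE over basal (horizontal axis, bars are ± 1 SE) for the 8 tested genes, in control mice (blue) and cKO mice (orange); filled points passed an adjusted p of 0.05. The 5 filled points are all in control mice, from Ftl1 at 2.60 to Lcn2 at 8.63.

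Because scaling cancels within a library, the ratio of heavy to light chain was also taken, each count divided by the gene length in the table. In control basal libraries Fth1 RNA exceeded Ftl1 RNA 103, 96.4 and 96.9 times per base. In control EAE the ratio was 18.4, 23.0 and 25.6, 4.46-fold lower on geometric means. In cKO EAE it was 76.4, 39.5 and 95.9, all above the control EAE libraries and with the highest just below the control basal libraries. An exact two-sided permutation test gave p = 0.1 for control EAE against control basal and for cKO EAE against control EAE, the smallest p that 3 against 3 allows (adjusted p = 0.2 over the 4 comparisons). The exact p was 0.3 for cKO EAE against cKO basal and 1 for cKO against control basal. The cKO basal ratios were 92.5, 441 and 94.96, the high one in the library that stood apart. The absolute ratio depends on the lengths given, 866 bases for Fth1 and 1340 for Ftl1. Reads of ferritin pseudogenes could not be separated from their parents. The annotated copy with most counts, Ftl1-ps1, had 541 against 39707 for Ftl1 over all libraries. That does not bound the error, because reads that match both may have been dropped and their handling is not stated.

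**Figure D3:**
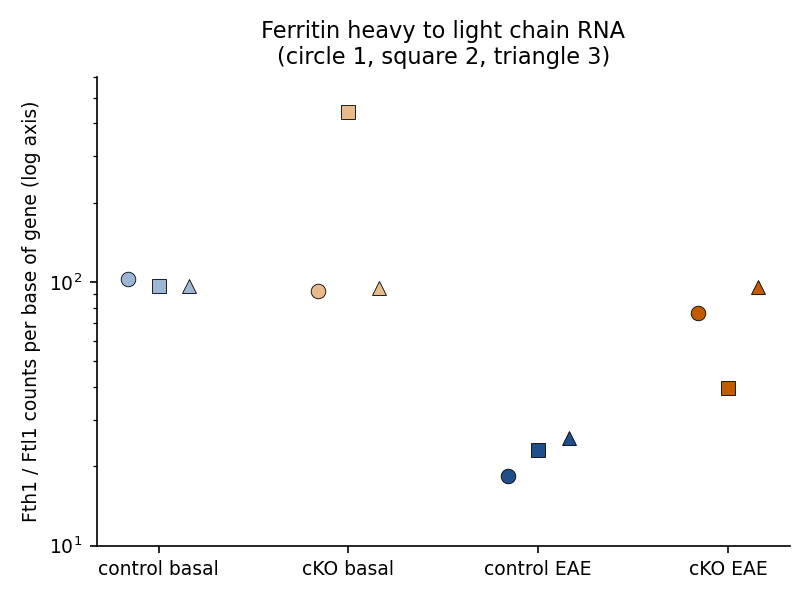
Ratio of Fth1 to Ftl1 counts per base of gene in each library (log axis), by group; circles, squares and triangles are libraries 1, 2 and 3. Control EAE libraries lie between 18.4 and 25.6, and 5 of the 6 basal libraries between 92.5 and 103.

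Ranked per kilobase of gene (RPKM of TMM-scaled counts), the order of the members differed between basal and EAE. In control basal it ran Fth1 (5792 RPKM), Ftl1 (58.3), Tfrc (23.7), Hmox1 (3.36), Slc40a1 (1.48), Cp (1.24), Lcn2 (0.685), Hp (0.316) and Hpx (0.0756), and from Slc40a1 downward the ranges of neighbours overlapped. In control EAE, Lcn2 (270 RPKM) had passed Tfrc (21.9) and stood next to Ftl1 (354) without overlapping it. Hmox1 (71.4), Hp (40.5) and Cp (24.7) followed with overlapping ranges, Cp overlapped Tfrc, and Slc40a1 (1.16) and Hpx (0.351) came last. These ranks rest on the gene lengths in the table, which join the exons of all isoforms and understate genes with long rare exons.

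In cKO mice the same genes had higher means in EAE than at basal, and none passed the test. Lcn2 was 1.92, 3.82 and 1.31 CPM in cKO basal and 103, 215 and 18.2 CPM in cKO EAE, groups that did not overlap. Cp was 12.3, 4.55 and 13.1 CPM in cKO basal and 117, 123 and 30.6 CPM in cKO EAE, again without overlap. Their log2 fold changes were 5.60 (SE 0.96) and 3.17 (SE 0.53), each with an adjusted p of 0.0726 by the quasi-likelihood test of edgeR with Benjamini-Hochberg adjustment. None of the 8 tested members was called higher, against 0.0323% of the 18601 genes. At an unadjusted p below 0.05 there were 4 (Lcn2, Cp, Hp and Hmox1), against 19.6% of all genes. DESeq2's Wald test called 4 members and 6.66% of genes, and limma voom with sample weights called 5 members and 19.6% of genes.

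The other members of the rising set overlapped between cKO basal and cKO EAE, with 1 low EAE library each. Hp was 0.465, 2.27 and 0.596 CPM in cKO basal and 13.0, 15.8 and 0.790 CPM in cKO EAE (log2 fold change 3.21; adjusted p = 0.184). Hmox1 was 6.22, 1.46 and 4.17 CPM in cKO basal and 21.1, 40.6 and 4.44 CPM in cKO EAE (2.46; adjusted p = 0.119). In each case cKO EAE 3 was the low library, at a level within the cKO basal range. Ftl1 showed the same layout, at 70.4, 124 and 52.3 CPM in cKO basal and 145, 257 and 63.5 CPM in cKO EAE (0.91; adjusted p = 0.297).

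Fth1, Tfrc and Slc40a1 showed no rise in cKO mice. Fth1 was 4209, 35441 and 3209 CPM in cKO basal and 7160, 6552 and 3934 CPM in cKO EAE, and its log2 fold change of -1.28 (SE 0.75; adjusted p = 0.364) turned to 0.66 without cKO basal 2. In that library Fth1 alone took 2.58% of all counts, against 0.339% to 0.728% in the others. The erythrocyte marker list summed to 979 CPM there (2 of 8 genes at 0, Alas2 among them) and to between 10.2 and 100 CPM in the other 11 libraries. The oligodendrocyte list summed to 63328 CPM there and to between 13173 and 25105 CPM in the other 11. The part of either difference in the Fth1 value was not tested. Tfrc was 158, 220 and 141 CPM in cKO basal and 195, 161 and 167 CPM in cKO EAE. Slc40a1 was 13.8, 15.0 and 12.2 CPM in cKO basal and 10.4, 11.98 and 14.3 CPM in cKO EAE. For both genes the groups overlapped.

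Without cKO basal 2 and cKO EAE 3, 6 members were called higher in cKO mice, against 10.8% of 18956 genes. They were Lcn2 (6.60), Cp (3.23), Hp (4.73), Hmox1 (2.55), Ftl1 (1.70) and Fth1 (0.87; adjusted p = 0.0364), each on the log2 scale. Leaving out cKO EAE 3 alone gave 4 calls (Lcn2, Cp, Hp and Hmox1), against 5.63% of genes, and leaving out cKO basal 2 alone gave 0, against 0.0367%. Since cKO EAE 3 was left out for its low immune markers, calls without it describe the remaining libraries only. In control mice, without both libraries, the same 5 of the 8 members were called, against 24.9% of genes called higher.

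At EAE the 5 genes that rose in controls were lower in every cKO library than in every control library, with no call. How many of all genes separated in this way was not counted, so the separation is a description. Lcn2 stood at 624, 760 and 740 CPM in control EAE against 103, 215 and 18.2 CPM in cKO EAE, as given above, a log2 difference of -2.63 (SE 0.77; adjusted p = 0.0715). Hmox1 differed by -2.47 (SE 0.69; adjusted p = 0.0664), Hp by -2.68 (SE 0.92; adjusted p = 0.0955), Ftl1 by -1.58 (SE 0.46; adjusted p = 0.0718) and Cp by -1.35 (SE 0.49; adjusted p = 0.104). By the quasi-likelihood test of edgeR with Benjamini-Hochberg adjustment over 17914 genes, none of the 8 tested members was called lower or higher, against 1.54% of genes lower and 6.13% higher. At an unadjusted p below 0.05 there were 6, these 5 and Tfrc, but so were 35.9% of all genes. DESeq2's Wald test called 3 members and 23.1% of genes, and limma voom with sample weights called 5 members and 32.3% of genes.

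These calls turned on single libraries. Without cKO EAE 3 the same 5 genes were called lower in cKO mice, against 9.1% of 18319 genes: Lcn2 by -2.12 (SE 0.28; adjusted p = 0.0150), Hmox1 by -1.99 (SE 0.30; adjusted p = 0.0150), Cp by -0.94 (SE 0.15; adjusted p = 0.0151), Ftl1 by -1.21 (SE 0.24; adjusted p = 0.0185) and Hp by -2.14 (SE 0.47; adjusted p = 0.0220). Without cKO EAE 2, 3 were called (Lcn2, Hmox1 and Ftl1), against 18.6% of genes in either direction. The differences became smaller without cKO EAE 3, the library with the lowest levels, and their errors shrank more. A bulk library cannot tell fewer cells of a type from less RNA per cell, and p-values here measure the spread between samples labelled as biological replicates.

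**Figure D4:**
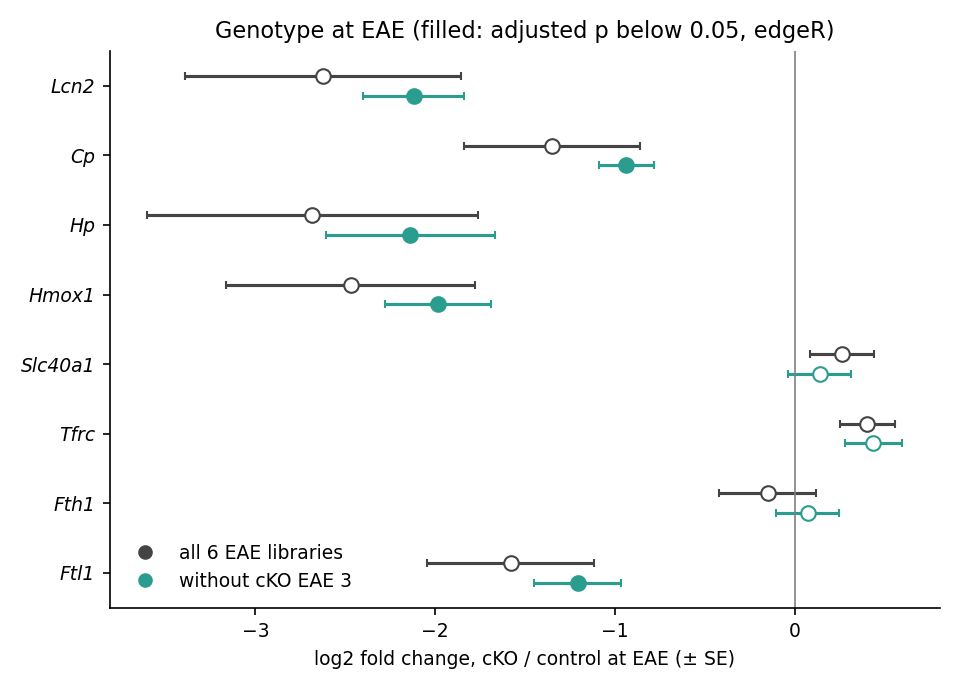
Log2 fold change of cKO over control at EAE (horizontal axis, bars are ± 1 SE) for the 8 tested genes, from all 6 EAE libraries (grey) and without cKO EAE 3 (green); filled points passed an adjusted p of 0.05. Lcn2, Cp, Hp, Hmox1 and Ftl1 lie left of 0 in both fits and are filled in the second, while Fth1, Tfrc and Slc40a1 lie near 0.

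The ferritin heavy chain, the receptor and the exporter did not share this order. Fth1 differed by -0.15 (SE 0.27; adjusted p = 0.711) between genotypes at EAE, Slc40a1 by 0.26 (SE 0.18; adjusted p = 0.320) and Tfrc by 0.40 (SE 0.15; adjusted p = 0.113). Tfrc was 195, 161 and 167 CPM in cKO EAE against 115, 161 and 130 CPM in control EAE, groups that overlapped at 161 CPM. Of the members with a hairpin match, Ftl1 was thus the only one whose cKO and control EAE libraries did not overlap. The share of all genes without overlap was not counted here either.

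Summed markers of entering cells were also lower in cKO EAE than in control EAE, and lowest in cKO EAE 3. The list of 10 monocyte and macrophage genes summed to 6318, 4126 and 3635 CPM in control EAE, to 920, 1879 and 117 CPM in cKO EAE and to 41.5 to 73.8 CPM at basal. Set against that sum, Lcn2 was 9.87%, 18.4% and 20.4% of it in control EAE and 11.2%, 11.5% and 15.6% in cKO EAE, ranges that overlap. Hp was 1.77%, 1.17% and 0.946% in control EAE and 1.41%, 0.838% and 0.676% in cKO EAE, which also overlap. Cp was higher relative to the list in cKO EAE (12.7%, 6.56% and 26.2%) than in control EAE (3.01%, 6.21% and 7.23%), apart from 1 library that lay inside the control range. Ftl1 was 15.8%, 13.7% and 54.3% in cKO EAE and 9.08%, 10.6% and 11.4% in control EAE, without overlap. Within control EAE the members did not share the order of the list. Its sum was highest in library 1, where Hp and Ftl1 were highest but Lcn2, Cp and Hmox1 were lowest.

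The order of the genotypes depended on the list chosen for the ratio. Relative to the microglia list, Lcn2 was 26.7%, 37.9% and 35.9% in control EAE and 11.1%, 12.6% and 5.65% in cKO EAE. It was also lower in cKO EAE without overlap relative to the neutrophil list (35.3% to 128% against 229% to 325%) and the astrocyte list (0.378% to 2.36% against 7.62% to 9.21%). Ftl1, higher in cKO EAE against the monocyte list, was lower there against the microglia list (15.5%, 15.0% and 19.7%) than in control EAE (24.6%, 21.8% and 20.03%). Against the neutrophil list it was again lower, at 72.7% to 153% in cKO EAE and 171% to 211% in control EAE. These ratios are descriptions, and the part of entering cells in the members' levels was not tested.

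Neutrophils, which are known to hold haptoglobin and lipocalin 2 in their granules, were also considered. The 12 neutrophil markers summed to 272, 234 and 242 CPM in control EAE and to 200, 168 and 51.5 CPM in cKO EAE, with no gene at 0, against 9.39 to 32.4 CPM at basal and 142 CPM in cKO basal 2. Of the EAE sum in controls Csf3r gave 158, 107 and 112 CPM, while Ly6g was at most 1.03 CPM in any library. S100a8 was 32.2, 35.5 and 41.5 CPM in control EAE and 42.8, 23.9 and 11.7 CPM in cKO EAE. Per kilobase of gene, Lcn2 was 238 to 290 RPKM in control EAE, above S100a8 at 46.4 to 59.8 RPKM. In cKO EAE the ranges overlapped, at 6.93 to 82.1 RPKM for Lcn2 and 16.8 to 61.7 RPKM for S100a8. Hepatocyte markers, the liver being the classical source of Hp, Hpx and Cp, summed to 2.92 to 5.94 CPM in EAE libraries, and Alb was at 0.414 CPM or less in each of them. In cKO basal 3 that list summed to 78.0 CPM, of which 67.9 CPM was Ttr, a gene that the choroid plexus also makes, and 8.77 CPM was Alb. Hpx had its highest basal count there, and the part of either tissue in it was not tested.

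At basal the genotypes did not differ by these tests. No member was called by edgeR's quasi-likelihood test, nor was any of the 17133 genes (0%), and 31 genes, none a member, had an unadjusted p below 0.05. DESeq2's Wald test and limma voom called 0 members. The log2 difference was 0.40 for Lcn2 (SE 0.84), -0.24 for Cp (SE 0.43), 1.13 for Hp (SE 1.09), -0.56 for Hmox1 (SE 0.53) and 0.09 for Ftl1 (SE 0.40), each with an adjusted p of 0.997. Fth1 had the largest value, 1.53 (SE 0.97), which became -0.43 (SE 0.27) without cKO basal 2. Tfrc (0.24) and Slc40a1 (0.05) were close to 0.

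The difference between the responses of the genotypes to EAE was tested directly, as an interaction in the fit of all 12 libraries. Basal libraries held female and EAE libraries male transcripts. This difference therefore cannot be told apart from a genotype difference that varies with sex. The response of cKO mice was smaller by these estimates for Hp (-3.80, SE 1.52), Lcn2 (-3.03, SE 1.18), Hmox1 (-1.95, SE 0.93), Ftl1 (-1.69, SE 0.65) and Cp (-1.15, SE 0.69) on the log2 scale. None passed by the quasi-likelihood test of edgeR with Benjamini-Hochberg adjustment (adjusted p = 0.547 for Lcn2, Hp and Ftl1), nor did any gene of the table (0%). At an unadjusted p below 0.05 there were 3 members (Lcn2, Hp and Ftl1), against 9.11% of genes. DESeq2's Wald test called 0 members and 0.489% of genes, and limma voom with sample weights called 2 members (Hmox1 and Ftl1) and 16.1% of genes. The estimate for Fth1 was -1.70 (SE 1.05) and became 0.45 without cKO basal 2 and cKO EAE 3.

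The wider pathways were read from lists that leave out the 9 members. In control mice, the median log2 fold change of EAE over basal was -0.01 over all 18601 genes tested. Of these genes, 12.1% were called higher and 5.05% lower, the shares beside which the counts of each list stand. Of 12 genes for iron uptake and release from endosomes, 11 were tested, 6 rose, none fell and the median was 1.34. Of the 11, 10 passed the filter among the basal libraries alone. Slc25a37, mitoferrin 1, which carries iron into mitochondria, rose by 1.61 (SE 0.21). Steap4, a metalloreductase, went from a mean of 0.205 to 136 CPM (9.29, SE 1.33). It had at most 7 counts in any basal library and entered through the EAE libraries. It therefore had to differ, and its rise is a description. Slc11a1, the iron and manganese transporter of phagosomes, went from a mean of 2.52 to 99.8 CPM (5.30, SE 1.08). The transporter Slc39a8 rose by 1.34 (SE 0.30).

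Of 8 genes for iron export, storage and chaperones 6 were tested, none rose and 1 fell, Iscu, the scaffold for iron-sulfur clusters (-0.86, SE 0.18). The ferroxidase Heph (-0.23; adjusted p = 0.497) and Ncoa4, the ferritin autophagy receptor (0.18; adjusted p = 0.838), did not pass. Of 12 tested regulators of iron, Hfe (1.29) and Smad4 (0.57) rose, against 12.1% of all genes called higher. Hamp, for hepcidin, the hormone that closes ferroportin, did not pass the filter. Without cKO basal 2 and cKO EAE 3, 4 of the 12 regulators rose and 2 fell, against 45.8% of all genes called in either direction.

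In heme synthesis 9 of 9 were tested. Alas1, the first and rate-limiting enzyme outside red cells, rose by 1.31 (SE 0.16), from 53.2 to 132 CPM. Cpox fell by 0.88 (SE 0.21), and the list's median was -0.57. Without cKO basal 2 and cKO EAE 3, 2 of these 9 genes rose and 4 fell, against 45.8% of all genes called in either direction. None of the 10 genes for heme uptake, export and breakdown passed by edgeR's test. At an unadjusted p below 0.05 there were 4, against 5322 of all 18601 genes. They were Blvrb, biliverdin reductase B (1.03; adjusted p = 0.0675), Lrp1, the hemopexin receptor (1.03; adjusted p = 0.101), Flvcr2 (1.12; adjusted p = 0.122) and Abcg2 (0.47; adjusted p = 0.173). Hmox1 was thus alone in its pathway in passing the test with all libraries. Without cKO basal 2 and cKO EAE 3, 4 of these 10 genes rose and 1 fell, near the share of all genes called (45.8%). None of the 3 lipocalin 2 partners passed, with 1 at an unadjusted p below 0.05: the receptor Slc22a17 stood at -0.87 (adjusted p = 0.0933), Mmp9 at 0.24 and Bdh2 at 0.33.

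Of 12 genes of the NRF2 and BACH1 pathway, which governs Hmox1 and the ferritin genes, 4 rose and none fell, with a median of 0.38. Over all genes 12.1% were called higher. The 4 were Gsr (1.23), Slc7a11 (2.68), Nfe2l2, for NRF2 itself (2.29), and Bach1, the heme-sensing repressor (1.48). Without cKO basal 2 and cKO EAE 3, 6 of the 12 rose and 2 fell, against 45.8% of all genes called in either direction. Nqo1, a standard NRF2 target, was at 0.13 (adjusted p = 0.853), named after its value was seen. Of 19 other acute-phase genes 9 passed the filter and 7 of them rose (median 4.76), among them Serping1 (5.15), Lrg1 (5.08), A2m (3.54) and Saa3, which went from 0.0368 to 86.4 CPM. The 10 that failed the filter included Saa1, Saa2, Crp and the 3 fibrinogen chains, which the liver makes. The 12 genes of acute-phase signalling were called higher, including Osmr (3.64), Socs3 (6.44), Stat3 (1.65) and Il1b, which went from 0.0764 to 74.8 CPM. In this list 7 of 12 genes, and of the other acute-phase genes 7 of 19, passed the filter among the basal libraries alone. The rest entered through the EAE libraries, where they were high, and had to differ, so these counts and medians are descriptions.

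**Figure D5:**
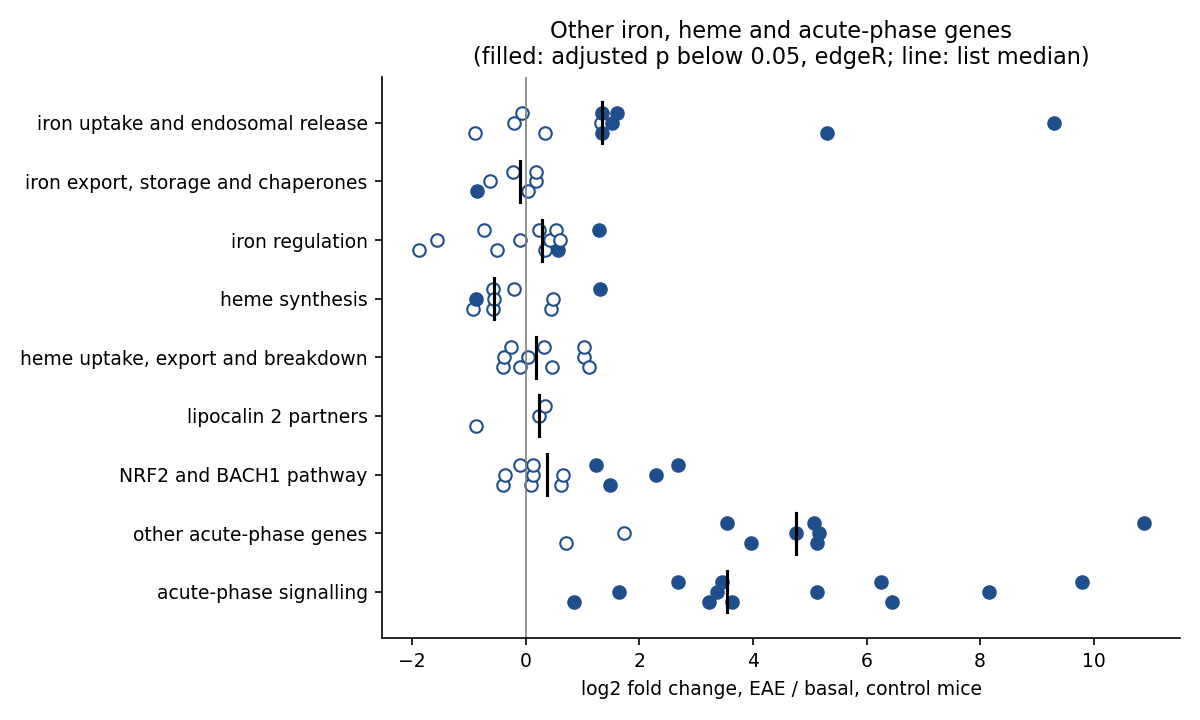
Log2 fold change of EAE over basal in control mice (horizontal axis) for the tested genes of 9 lists that leave out the members; filled points passed an adjusted p of 0.05 and black lines are list medians. All 12 signalling genes are filled, while the lists for heme uptake, export and breakdown and for lipocalin 2 partners have no filled point.

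Of these lists, only Lrg1 was called higher in cKO mice (4.81, SE 0.66; adjusted p = 0.0439). Between genotypes at EAE, 7 of the 82 tested genes of the lists passed (8.54%), near the 7.67% of all genes, and all 7 are named for passing. In this comparison 0 of all genes were called with library totals as scaling, with the replicate number in the model or with all 12 libraries fitted. The count was also 0 without any 1 of the control EAE libraries and without cKO EAE 1, so the 7 calls depend on these choices. Slc25a37 (-1.04), Alas1 (-0.79), Gsr (-0.84) and Bach1 (-0.89) were lower in cKO mice, and Steap2 (1.01), Iscu (0.52) and Alad (0.46) were higher. Steap2 is a metalloreductase, and Alad the second enzyme of heme synthesis. Without cKO basal 2 and cKO EAE 3, the signalling list had 12 of 12 genes higher in control mice, 10 of 12 higher in cKO mice and 6 of 12 lower in cKO than in control at EAE. The other acute-phase genes gave 10 of 10, 9 of 10 and 4 of 10, and the list for iron uptake 8, 4 and 3 of 11. Over all genes these shares were 24.9%, 10.8% and 9.1%, and the limit set by the filter holds here too.

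The genes whose pattern over the 12 libraries lay closest to each member were found by the mean absolute difference of centred log2 CPM, among the 15299 protein-coding genes tested that are no members. For Lcn2 they were Lilr4b (0.65), Tlr8 (0.65) and Lyz2 (0.67), the last of these also a gene of the monocyte list. Hp lay nearest to Pirb (0.46), Fpr2 (0.50) and Tnfrsf9 (0.52), and Hmox1 to Arpc1b (0.33), Tagln2 (0.35) and Plcg2 (0.35). Cp had Tgm2 (0.26), Dock8 (0.29) and Col1a1 (0.30) as neighbours. Ftl1 followed Plin2 within 0.15 log2 units, then Btg1 (0.16) and Pygl (0.17). Fth1 lay nearest to Txndc17 (0.11), Marc2 (0.11) and Ddah2 (0.12), which share its high value in cKO basal 2, at 144, 306 and 65.5 CPM there. Tfrc was nearest to Dpysl3 (0.07) and Slc40a1 to Fam149a (0.09), both of which varied little between libraries. Most of these neighbours changed without cKO basal 2 and cKO EAE 3, a measure added after the data were seen. Hp (Tnfrsf9), Tfrc (Dpysl3) and Ftl1 (Plin2) each kept 1 of their 3 neighbours, and the other 5 members kept none. Fth1 then lay nearest to Pafah2 (0.10), S100a16 (0.11) and Pon2 (0.11), Ftl1 to Ctsd (0.10), for the lysosomal protease cathepsin D, and Lcn2 to Msr1 (0.46), for a macrophage scavenger receptor.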

How the data were processed

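The series holds 12 RNA sequencing libraries of total RNA from mouse spinal cord. The deposited table holds raw read counts per gene, per the file headers; the submitters' processing notes name HISAT2 2.0.5, the build mm10 and featureCounts 1.5.0-p3. Neither the strand setting nor the handling of multimapping reads is stated there.

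Counts were tested with edgeR 4.0.16 (limma 3.58.1, R 4.3.3): TMM, filterByExpr, quasi-likelihood F test, Benjamini-Hochberg adjustment over all genes tested, threshold 0.05. Disease responses and their difference came from 1 fit of 12 libraries (18601 genes), genotype comparisons from 6 EAE (17914 genes) or 6 basal libraries (17133 genes). The script was tested on simulated data. Ferritin ratios used scipy 1.17.1. Library totals of 15128913 to 17592105 counts made 1 count worth 0.0552 to 0.0910 CPM. Replicate pairs all differed by more than sampling noise.

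Named genes were the members, Drd2, the 4 genes of each list with the smallest p in EAE against basal in control mice, and the 3 genes nearest to each member (prior count 0.5). Some genes that this rule names are not reported here. Members, lists, marker lists and the libraries left out were chosen with earlier results of these data known. The marker lists were neutrophils, erythrocytes, monocytes and macrophages, microglia, T cells, astrocytes, oligodendrocytes, endothelium, neurons, fibroblasts and meninges, and hepatocytes; those not described above summed, in control EAE and in cKO EAE respectively, to 2003 to 2336 and 322 to 1706 CPM (microglia), 97.9 to 108 and 5.47 to 48.3 (T cells), 8184 to 9645 and 4807 to 9141 (astrocytes), 13173 to 16741 and 18388 to 25040 (oligodendrocytes), 408 to 482 and 406 to 456 (endothelium), 2131 to 3086 and 4643 to 6276 (neurons) and 406 to 427 and 147 to 410 (fibroblasts and meninges). Alternatives were DESeq2 size factors, library totals, no filter, DESeq2 1.42.0, limma voom with sample weights, a replicate block, other libraries in the fit and leaving out libraries.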

Additional observations from a re-analysis of the deposited data

How the results depend on the processing

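The calls of Lcn2, Cp, Hp, Hmox1 and Ftl1 in control mice held under every alternative run, in which 5 to 7 members were called there; limma voom added Slc40a1 (-0.41) and Fth1 (0.67) while calling 59.8% of all genes, and Hpx was the sixth where cKO basal 2 was left out. In cKO mice, with 0 members called as reported, 2 were called without a filter, 4 by DESeq2's Wald test, 5 by limma voom with sample weights, 6 without both doubted libraries (cKO basal 2 and cKO EAE 3), and 0 to 4 with 1 library left out. The share of all genes called moved as well, from 0.0376% to 1.42%, 6.66%, 19.6% and 14.3% under the first 4 of these. For cKO against control at EAE the counts in the same order were 2, 3, 5, 5, and 0 to 5, with 4.99%, 23.1%, 32.3% and 18.2% of all genes called under the first 4, against 7.67% as reported. For the difference between responses limma voom called 2 and no other alternative called any. The cause of these shifts was not tested.

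Signs changed only for log2 values that did not pass as reported. In cKO mice, Tfrc became -0.028 under DESeq2's size factors and -0.028 by its Wald test, and ran from -0.14 to 0.22 with 1 library left out. Fth1 there became 0.86 by limma voom and 0.87 without both doubted libraries, and ran from -1.78 to 0.66. For cKO against control at EAE, Fth1 became 0.058 by limma voom and 0.071 without the doubted libraries, and ran from -0.33 to 0.071. For the difference between responses, Fth1 became 0.20 and 0.45 under those alternatives and ran from -2.16 to 0.23. At basal, library totals gave Slc40a1 -0.11 and Ftl1 -0.13, while moving the median of all genes from -0.02 to -0.13, and no filter gave Slc40a1 -0.0022. At basal, limma voom gave Cp 0.0027, Slc40a1 -0.038, Tfrc -0.064, Fth1 -0.16 and Ftl1 -0.13. Without the doubted libraries, the basal values were -0.13 for Lcn2, 0.10 for Cp, -0.033 for Slc40a1, -0.43 for Fth1 and -0.35 for Ftl1. With 1 library left out, they ran from -0.13 to 1.09 for Lcn2, -0.49 to 0.10 for Cp, -0.033 to 0.12 for Slc40a1, -0.43 to 1.99 for Fth1 and -0.35 to 0.33 for Ftl1.

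With the replicate block, 5 members were called in control mice and 0 in each other comparison; Lcn2 in control mice was then 9.05 (adjusted p = 0.00835). Deviations of same-numbered libraries correlated at -0.42 to 0.33. Libraries with different numbers were not compared, so these values cannot decide whether the numbers pair the samples. The block lowered the count of all genes called from 3183 to 2509 in control mice and from 1374 to 0 for cKO against control at EAE, a count that was also 0 with library totals. At this depth Hpx was limited by counting error throughout. Basal counts per library were 1 to 25 for Hp and 6 to 50 for Lcn2, so both counting error and the spread between libraries entered there.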
